A study of Mus musculus with 10 samples.

Results

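Brown fat of mice labelled obesity-resistant under high-fat feeding was compared with that of control mice on chow, gene by gene, by RNA sequencing of total RNA. Brown adipose tissue is the fat depot that burns fuel to make heat. The obesity-resistant group had 3 libraries and the control group 4, each from wild-type C57BL/6J mice, an inbred laboratory strain. The obesity-resistant libraries were labelled with a high-fat diet and the control libraries with a regular chow diet. A further 3 libraries from obesity-prone mice of the same strain on a high-fat diet entered the fit, so that all 10 libraries of the series shared one estimate of spread. The genes compared were all those that carry a numeric gene identifier and a name in the deposited table, 25017 of 32889. Of these, 16920 had enough counts to be tested, among them 14240 protein-coding genes and 2207 long noncoding RNAs. How the mice were sorted into resistant and prone, and their age, sex and time on the diet, are not given in the sources used here. Whether each library is a separate animal is not stated in the labels, and p-values then measure only the spread between these samples, which may be technical. The comparison asks how brown fat differs between mice that resist obesity under fat-rich feeding and chow-fed mice.

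Brown adipocytes hold many mitochondria and many small lipid droplets, and the uncoupling protein UCP1 lets their mitochondria release energy as heat. Sympathetic nerves switch this on through beta-adrenergic receptors and cyclic AMP, and the cells burn fatty acids, glucose and branched-chain amino acids. Brown fat also makes fatty acids from carbohydrate at a high rate (de novo lipogenesis), a pathway that carbohydrate feeding and insulin raise and dietary fat lowers. Chaperones of the heat shock family, which fold new and damaged proteins, are switched on by heat shock factors when unfolded protein builds up.

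Library totals lay between 35583997 and 37327770 counts. Genes with no name, which were fitted but are not described, held 21.0% to 26.2% of them, and 1 such gene held 16.1% to 21.2%. CPM below means counts scaled to a common total on TMM-normalised library sizes, and values per library stand in the order of replicate numbers, 1 to 4 for control and 1 to 3 for the high-fat groups. The tissue label was checked against brown adipocyte markers. Ucp1 was at 6240.3, 8771, 9384 and 10271 CPM in the control libraries and 8653, 9753 and 9139.7 in the obesity-resistant ones, and all 8 brown adipocyte markers were found, with a summed level of 8420 to 12900 CPM in control and 11500 to 13100 in obesity-resistant libraries. Other cell types were present in uneven amounts. The 28 skeletal muscle markers summed to 118 to 3120 CPM over the control libraries and to 152 to 2800 over the obesity-resistant ones, so that the 2 groups overlapped over nearly the same range. Erythrocyte markers summed to 936 to 6460 and 847 to 2620 CPM. The 13 mesothelial and epithelial markers did not overlap, with 19.5 to 29.4 CPM in control and 7.66 to 10.6 in obesity-resistant libraries. None of these markers was at 0 in every library, and the part of these other cells in the results below was not tested. In bulk tissue, fewer cells of a type and less RNA per cell cannot be told apart.

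In obesity-resistant brown fat 28 genes changed against control, 19 higher and 9 lower, at an adjusted p below 0.05 by edgeR's quasi-likelihood test with Benjamini-Hochberg adjustment over 19676 genes. They are 0.165% of the named genes tested (0.112% higher and 0.0532% lower). The set was headed by Lamb3 (a laminin chain), Ryr2 (the ryanodine receptor, which lets calcium out of internal stores) and Gpc1 (a heparan sulfate proteoglycan), which rose, while Fgf14, Col6a6 and Cyp1a1 fell. By counts, fold changes ran from a log2 value of 3.29 for Bmp8b, a signalling protein of brown fat, to -3.28 for Cyp1a1, a cytochrome P450. No library of one group reached into the range of the other for any of the 28 genes. Such a gap is common in this comparison, since 21.1% of all named genes tested (10.4% higher and 10.7% lower) had groups that did not overlap, and 18.7% (8.77% higher and 9.91% lower) had an unadjusted p below 0.05. The line between called and not called ran through a dense stretch of genes. The largest adjusted p among the genes called was 0.048, the smallest among the others 0.0504, and 56 more genes lay between 0.05 and 0.06 (33 higher and 23 lower). With the replicate number as a block, a fit that gives no weight to control replicate 4 because no other group has that number, 367 genes were called (2.17% of those tested; 179 higher, 1.06%, and 188 lower, 1.11%), and all 28 were among them. DESeq2 called 1048 genes (6.19%), 492 higher (2.91%) and 556 lower (3.29%). A fit of the 7 libraries alone called 369 (2.23%), 224 higher (1.36%) and 145 lower (0.878%). Both of these sets held all 28. No pairing of libraries by replicate number is stated in the labels. The shares in brackets are those over all named genes tested, for use beside the counts per list below.

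**Figure D1:**
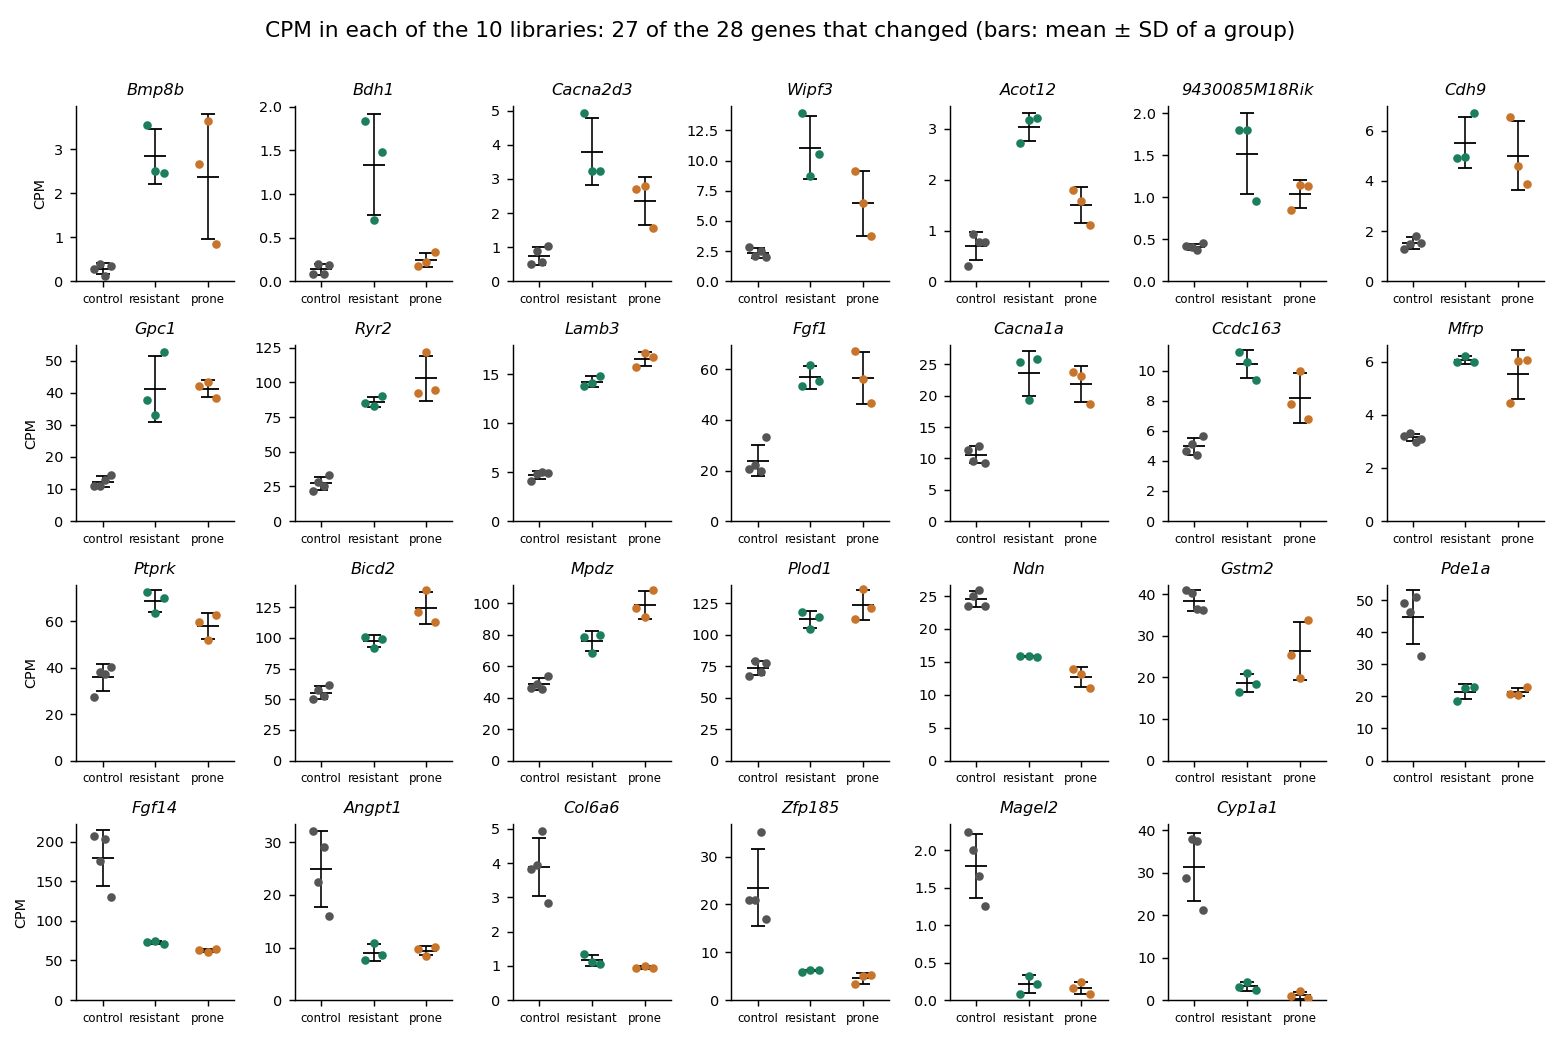
CPM of 27 of the 28 called genes in each of the 10 libraries, with 1 point per library, a bar for the mean and SD of the group, and a linear axis from 0 in each panel; the panels run from the largest rise to the largest fall. In every panel the 3 obesity-resistant points lie to one side of the 4 control points.

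Genes of calcium handling and electrical excitability were among those that rose. Ryr2 (identifier 20191, chromosome 13, 11553099 to 12106945) was at 21.8, 28.04, 25.5 and 33.4 CPM in control and 85.3, 82.8 and 90.02 in obesity-resistant libraries. The obesity-resistant libraries were close together and far above the control range, with a log2 change of 1.66 ± 0.15 (SE, adjusted p = 0.0032). The deposited FPKM of Ryr2 differed less, with a ratio of means of 2.33 against 3.16 by CPM. Cacna1a (identifier 12286, chromosome 8, 84338631 to 84640251), the pore subunit of a voltage-gated calcium channel, was at 11.4, 9.53, 12 and 9.26 CPM in control and 25.4, 19.4 and 25.9 in obesity-resistant libraries, with a log2 change of 1.16 ± 0.14 (SE, adjusted p = 0.021). Cacna2d3 (identifier 12294, chromosome 14, 28904943 to 29722775), an auxiliary subunit that helps calcium channels reach the membrane, was at 0.503, 0.898, 0.5701 and 1.04 CPM in control and 4.92, 3.22 and 3.24 in obesity-resistant libraries, with a log2 change of 2.32 ± 0.31 (SE, adjusted p = 0.03). Within its locus lies Lrtm1, a small gene that went the other way, from 2.96 to 0.420 CPM on average (log2 fold change -2.81, adjusted p = 0.053, not called). No setting for strand is given in the sources used here, and reads of overlapping genes on opposite strands could then not be told apart. Pde1a (identifier 18573, chromosome 2, 79834453 to 80196522), a calcium- and calmodulin-dependent enzyme that breaks down cyclic nucleotides, fell. It was at 49.2, 46.2, 50.99 and 32.6 CPM in control and 18.7, 22.6 and 22.9 in obesity-resistant libraries, with a log2 change of -1.06 ± 0.15 (SE, adjusted p = 0.034). Control replicate 4 was the lowest of the control libraries for Pde1a and the highest for Ryr2, in each case the nearest to the obesity-resistant group.

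The calcium release and uptake list, with the pumps, release channels and channels of the plasma membrane, did not follow Ryr2. Of 41 members tested, 1 rose and none fell. At an unadjusted p below 0.05, 4 were higher and 5 lower (22.0%, against 18.7% of all named genes tested). The median log2 fold change was -0.13, against -0.018 over all named genes tested. Atp2a2, the main calcium pump of the endoplasmic reticulum, was at 413, 516, 469 and 607 CPM in control and 566, 569 and 518 in obesity-resistant libraries, and these ranges overlapped (log2 fold change 0.14 ± 0.18, SE). Sri, the calcium-binding protein sorcin, was the list's second member by p, at 37.3, 40.99, 36.3 and 37.2 CPM in control and 28.9, 29.9 and 31.97 in obesity-resistant libraries (log2 fold change -0.33, adjusted p = 0.11). None of 26 potassium channel genes was called. The 3 that passed an unadjusted p below 0.05 were lower (11.5%, against 18.7% of all named genes tested). Of these DESeq2 called 2, against 3.29% of named genes lower.

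Several called genes encode proteins of the matrix, of cell junctions or of cell adhesion. Lamb3 (identifier 16780, chromosome 1, 193294353 to 193343878), the beta chain of the epithelial basement membrane protein laminin-332, had the lowest p of all genes. It was at 4.14, 4.78, 5.05 and 4.95 CPM in control and 13.8, 14.1 and 14.9 in obesity-resistant libraries, with a log2 change of 1.59 ± 0.10 (SE, adjusted p = 0.0002). Both groups were tight, and no fit that left out a library moved the fold change beyond 1.53 to 1.62. Plod1 (identifier 18822, chromosome 4, 147909753 to 147936776), which hydroxylates lysines of collagen, was at 67.4, 78.7, 70.1 and 77.5 CPM in control and 118, 105 and 114 in obesity-resistant libraries, with a log2 change of 0.61 ± 0.09 (SE, adjusted p = 0.046). Col6a6 (identifier 245026, chromosome 9, 105689417 to 105828246), a chain of the beaded-filament collagen VI, fell. It was at 3.83, 3.94, 4.93 and 2.84 CPM in control and 1.33, 1.101 and 1.04 in obesity-resistant libraries, with a log2 change of -1.74 ± 0.21 (SE, adjusted p = 0.021). The same enzyme family as Plod1 includes the collagen prolyl hydroxylase P4ha2, which just missed the call at 6.74, 7.15, 5.56 and 7.85 CPM in control and 21.7, 15.4 and 16.1 in obesity-resistant libraries (log2 fold change 1.38, adjusted p = 0.053, and 0.043 with the replicate block).

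On the cell surface, Cdh9 (identifier 12565, chromosome 15, 16728550 to 16857138), a cadherin, was at 1.29, 1.48, 1.82 and 1.53 CPM in control and 4.92, 4.94 and 6.72 in obesity-resistant libraries, with a log2 change of 1.85 ± 0.21 (SE, adjusted p = 0.018). Ptprk (identifier 19272, chromosome 10, 28074820 to 28597397), a receptor phosphatase that binds its own kind on neighbouring cells, was at 27.5, 38.4, 37.2 and 40.2 CPM in control and 72.8, 63.5 and 69.97 in obesity-resistant libraries, with a log2 change of 0.94 ± 0.13 (SE, adjusted p = 0.031). Mpdz (identifier 17475, chromosome 4, 81278499 to 81442897), a scaffold of tight junctions, was at 46.3, 48.4, 45.8 and 53.8 CPM in control and 78.8, 68.6 and 80.1 in obesity-resistant libraries, with a log2 change of 0.64 ± 0.09 (SE, adjusted p = 0.038). All of these surface genes were thus higher in each obesity-resistant library than in any control library. The list of collagens and extracellular matrix did not move as a body. Of 39 members tested, 2 rose and 1 fell, and the median log2 fold change was -0.13. At an unadjusted p below 0.05, 7 were higher and 4 lower (28.2%, against 18.7% of all named genes tested). With the replicate block 5 members were called higher and 1 lower, against 1.06% and 1.11% of all named genes tested. Mesothelial and epithelial markers, whose summed level was lower in obesity-resistant libraries, stand beside the rise of Lamb3, an epithelial laminin, and their part in it was not tested.

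Heparan sulfate and growth factor genes changed in both directions. Gpc1 (identifier 14733, chromosome 1, 92831645 to 92860211), glypican-1, carries heparan sulfate chains on the outer membrane and binds fibroblast growth factors. It was at 11.01, 10.8, 12.7 and 14.4 CPM in control and 37.6, 33.2 and 52.7 in obesity-resistant libraries, with a log2 change of 1.75 ± 0.16 (SE, adjusted p = 0.0032). Obesity-resistant replicate 3 was the highest, and without it the log2 fold change was 1.55, still called. Fgf1 (identifier 14164, chromosome 18, 38838672 to 38929470), a fibroblast growth factor that adipocytes make, was at 20.5, 22.3, 19.9 and 33.1 CPM in control and 53.4, 61.95 and 55.4 in obesity-resistant libraries, with a log2 change of 1.25 ± 0.18 (SE, adjusted p = 0.038). Its locus shares 90799 bases with that of Arhgap26, which was far more abundant at 307 CPM in control and 345 in obesity-resistant libraries and did not pass (adjusted p = 0.64). Fgf14 (identifier 14169, chromosome 14, 123974441 to 124677686) belongs to the FGF family by sequence but stays in the cell, where it binds sodium channels. It fell, from 207, 175, 203 and 130.2 CPM in control and 73.1, 74.97 and 70.99 in obesity-resistant libraries, with a log2 change of -1.29 ± 0.15 (SE, adjusted p = 0.018).

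Of 27 fibroblast growth factors and receptors tested, these 2 were the ones called, and the median log2 fold change was -0.17. At an unadjusted p below 0.05, 4 were higher and 5 lower (33.3%, against 18.7% of all named genes tested). With the replicate block 4 were called higher and 2 lower, against 1.06% and 1.11% of all named genes tested. Among those higher with the block was Fgf21, at a log2 fold change of 2.37 (adjusted p = 0.033). Without the block its log2 fold change was -0.89. Of 31 glypican, syndecan and heparan sulfate synthesis genes, Gpc1 was the single one called. At an unadjusted p below 0.05, 2 members were higher and 6 lower (25.8%, against the same 18.7%). Those higher were Gpc1 and the xylosyltransferase Xylt1 (log2 fold change 0.72, adjusted p = 0.12). With the block Xylt1 was not called (adjusted p = 0.098), while Gpc1 and Extl1 were called higher. The log2 fold change of Extl1 was 2.34 with the block (adjusted p = 0.035). Without the block Extl1 was not called (adjusted p = 0.36). In all, the block called 2 members higher and 1 lower, against the same shares of 1.06% and 1.11%. Among the lower ones was the cell surface proteoglycan Sdc2, at 17.4, 15.4, 15.5 and 13.1 CPM in control and 9.18, 9.37 and 11.1 in obesity-resistant libraries (log2 fold change -0.64, adjusted p = 0.076, and 0.041 with the block). The median of that list was -0.073.

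Among secreted signals, Bmp8b (identifier 12164, chromosome 4, 123104308 to 123126094), a bone morphogenetic protein of mature brown adipocytes that raises their response to noradrenaline, had the largest rise by counts. It was at 0.2795, 0.406, 0.114 and 0.348 CPM in control and 3.56, 2.497 and 2.47 in obesity-resistant libraries, with a log2 change of 3.29 ± 0.50 (SE, adjusted p = 0.041). The deposited FPKM of Bmp8b differed less, 0.365 ± 0.171 (SD, n = 4) in control and 1.12 ± 0.205 (SD, n = 3) in obesity-resistant libraries, a ratio of means of 3.08 against 9.91 by CPM. On FPKM Bmp8b was not called by limma (adjusted p = 0.10 to 0.19 over its settings), and the ratio for Bdh1 was larger, at 9.96. A neighbour that shares 1753 bases with its locus, Oxct2b, also stood higher, at 0.0350 CPM in control and 0.475 in obesity-resistant libraries on average (adjusted p = 0.077). Angpt1 (identifier 11600, chromosome 15, 42424667 to 42676977), the vessel-stabilising ligand of the TIE2 receptor, fell. It was at 32.2, 22.5, 29.1 and 16.01 CPM in control and 7.702, 10.8 and 8.53 in obesity-resistant libraries, with a log2 change of -1.47 ± 0.23 (SE, adjusted p = 0.046). Gm41313, a long noncoding RNA whose locus shares 35019 bases with Angpt1, was at 9.33 and 2.83 CPM on average (log2 fold change -1.72, adjusted p = 0.11). Mfrp (identifier 259172, chromosome 9, 44101770 to 44109187), a membrane protein with a frizzled-type domain, was at 3.19, 3.33, 2.99 and 3.08 CPM in control and 5.98, 6.23 and 5.98 in obesity-resistant libraries, with a log2 change of 0.94 ± 0.13 (SE, adjusted p = 0.034). For Mfrp the ratio of means was 1.93 by CPM and 1.58 by FPKM. C1qtnf5, which shares 7418 bases with the Mfrp locus, was at 1.99 and 1.85 CPM and did not pass (adjusted p = 0.94). Of 23 adipokines and secreted factors, Bmp8b was the 1 that rose, and the median log2 fold change was -0.13. At an unadjusted p below 0.05, 3 members were higher and 4 lower (30.4%, against 18.7% of all named genes tested). DESeq2 called 2 higher and 2 lower, against 2.91% and 3.29% of named genes. The complement factor Cfd (adipsin) was at 1239.9, 616, 623 and 421 CPM in control and 277, 310.2 and 292 in obesity-resistant libraries (log2 fold change -1.31, adjusted p = 0.093). Adiponectin (Adipoq) was at 766, 533, 598 and 390.4 CPM in control and 304, 315 and 343 in obesity-resistant libraries (log2 fold change -0.83, adjusted p = 0.12), and leptin (Lep) at 22.2, 6.31, 11.97 and 8.25 CPM in control and 4.98, 2.12 and 17.2 in obesity-resistant libraries, where the ranges overlapped (log2 fold change -0.59 ± 0.96, SE). Both hormones are made by fat cells, and neither was called with the block (adjusted p = 0.068 and 0.31). DESeq2 called Adipoq (adjusted p = 0.017) and Cfd (adjusted p = 0.0013) lower, and did not call Lep (adjusted p = 0.83).

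Enzymes of ketone and acyl-CoA metabolism rose from very low control levels. Bdh1 (identifier 71911, chromosome 16, 31422297 to 31458901), the mitochondrial enzyme that turns the ketone bodies acetoacetate and hydroxybutyrate into each other, was at 0.0838, 0.203, 0.0855 and 0.187 CPM in control and 1.84, 0.698 and 1.48 in obesity-resistant libraries, with a log2 change of 3.22 ± 0.44 (SE, adjusted p = 0.031). Acot12 (identifier 74156, chromosome 13, 91741326 to 91786148), a cytosolic thioesterase that frees acetate from acetyl-CoA, was at 0.307, 0.927, 0.7696 and 0.777 CPM in control and 2.72, 3.17 and 3.21 in obesity-resistant libraries, with a log2 change of 2.12 ± 0.31 (SE, adjusted p = 0.038). At such levels a library holds few counts of a gene, which limits the precision of these folds.

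Both called enzymes of detoxification fell. Cyp1a1 (identifier 13076, chromosome 9, 57687928 to 57703824) oxidises foreign aromatic compounds and is switched on by the aryl hydrocarbon receptor, which binds the short core GCGTG of the xenobiotic response element. Its level was 28.8, 38.1, 37.6 and 21.1 CPM in control and 3.17, 4.24 and 2.28 in obesity-resistant libraries, with a log2 change of -3.28 ± 0.41 (SE, adjusted p = 0.021). The highest obesity-resistant library, at 4.24 CPM, was far below the lowest control library, at 21.1 CPM. Its promoter is printed because Cyp1a1 had the largest fall of all genes called. RefSeq lists a start that lies inside the span given above. The 250 bases before that start are at chr9:57697363-57697612 (GRCm38.p6, forward strand). The 1 match to the core is in capitals, its leading base 54 bases before that start:
Cyp1a1: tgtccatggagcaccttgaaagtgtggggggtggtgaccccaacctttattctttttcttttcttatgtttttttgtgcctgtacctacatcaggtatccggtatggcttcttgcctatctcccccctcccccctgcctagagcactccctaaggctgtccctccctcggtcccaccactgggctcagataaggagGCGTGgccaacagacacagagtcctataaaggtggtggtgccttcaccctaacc
The core GCGTG or its complement CACGC was in such a promoter of 8 of the 21 called genes with one listed (38.1%). It was found in 30.9% of all genes with a listed promoter and in 45.2% of the named genes tested that have one, so its presence is common. Gstm2 (identifier 14863, chromosome 3, 107981702 to 107986420), a glutathione transferase, was at 41.003, 40.2, 36.5 and 36.2 CPM in control and 16.5, 20.97 and 18.4 in obesity-resistant libraries, with a log2 change of -1.05 ± 0.16 (SE, adjusted p = 0.048). The related Gstm1 was at 131, 123, 121 and 103 CPM in control and 69.8, 61.95 and 82.5 in obesity-resistant libraries (log2 fold change -0.74, adjusted p = 0.053, and 0.028 with the block). Gstm genes are near copies of each other, so reads may have been split between them by the authors' counting. Of 26 antioxidant and NRF2 target genes tested, Gstm2 was the 1 that fell, 11 were lower and 1 higher at an unadjusted p below 0.05, against 9.91% and 8.77% of all named genes, and the median log2 fold change was -0.19.

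Both imprinted genes of the Prader-Willi region that were called lie next to each other on chromosome 7 and fell. Magel2 (identifier 27385, chromosome 7, 62376979 to 62381640), a partner of ubiquitin ligases, was at 2.24, 1.999, 1.65 and 1.26 CPM in control and 0.0834, 0.322 and 0.219 in obesity-resistant libraries, with a log2 change of -3.07 ± 0.44 (SE, adjusted p = 0.034). Ndn (identifier 17984, chromosome 7, 62348277 to 62349928), necdin, a repressor of adipocyte differentiation, was at 23.6, 25.03, 25.97 and 23.5 CPM in control and 15.9, 15.8 and 15.8 in obesity-resistant libraries, with a log2 change of -0.63 ± 0.09 (SE, adjusted p = 0.041). The 3 obesity-resistant values of Ndn were nearly the same, and those of Magel2 stand for few counts per library.

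The remaining called genes act in the cytoskeleton or have less settled roles. Bicd2 (identifier 76895, chromosome 13, 49341549 to 49387026), an adaptor that links cargo to the dynein motor, was at 49.9, 57.4, 52.9 and 61.6 CPM in control and 101, 91.9 and 99.5 in obesity-resistant libraries, with a log2 change of 0.81 ± 0.10 (SE, adjusted p = 0.021). Wipf3 (identifier 330319, chromosome 6, 54429218 to 54503768), a WASP-interacting protein of the actin cytoskeleton, was at 2.88, 2.09, 2.51 and 2.04 CPM in control and 13.9, 8.75 and 10.5 in obesity-resistant libraries, with a log2 change of 2.22 ± 0.28 (SE, adjusted p = 0.021). Zfp185 (identifier 22673, chromosome X, 72987252 to 73031543), a LIM-domain protein of actin structures, fell from 20.9, 20.97, 35.2 and 16.9 CPM in control and 5.95, 6.23 and 6.25 in obesity-resistant libraries, with a log2 change of -1.93 ± 0.25 (SE, adjusted p = 0.028). Control replicate 3 stood above the other control libraries for Zfp185. Ccdc163 (identifier 68394, chromosome 4, 116708340 to 116715684), a coiled-coil protein, was at 4.67, 5.16, 4.39 and 5.65 CPM in control and 11.2, 10.6 and 9.405 in obesity-resistant libraries, with a log2 change of 1.07 ± 0.15 (SE, adjusted p = 0.034). The long noncoding RNA 9430085M18Rik (identifier 77361, chromosome 5, 101703549 to 101763231) was the single one of 2207 long noncoding RNAs that changed (0.0453%). It was at 0.419, 0.406, 0.371 and 0.455 CPM in control and 1.81, 1.799 and 0.9597 in obesity-resistant libraries, with a log2 change of 1.87 ± 0.26 (SE, adjusted p = 0.034). In the annotation 19 of the 28 called genes overlap at least 1 other gene, 9 of them a protein-coding one.

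The 12 named genes that came nearest to the call were higher in 10 cases and lower in 2. Rprd1a, a regulator of RNA polymerase II, was at 20.3, 21.99, 20.5 and 23.9 CPM in control and 35.6, 32.2 and 33.1 in obesity-resistant libraries (adjusted p = 0.0504). Elmo2, an adaptor for cell engulfment and migration, was at 26.7, 25.2, 24.1 and 28.1 CPM in control and 41.8, 36.7 and 35.6 in obesity-resistant libraries (adjusted p = 0.0504). Lpin2, a phosphatidate phosphatase of triglyceride synthesis, was at 16.7, 18.3, 15.8 and 20.7 CPM in control and 25.7, 27.5 and 31.04 in obesity-resistant libraries, and Mrps6, a mitochondrial ribosomal protein, at 21.6, 25.9, 21.8 and 22.1 CPM in control and 43.4, 42.4 and 40.1 in obesity-resistant libraries. Fam131c, Otud3 (a deubiquitinase), Map3k13 (a kinase of the stress pathway), P4ha2, Arhgef19 and Sestd1 were also higher, and Mocs2 (molybdenum cofactor synthesis) and Elmod2 lower, each at an adjusted p of 0.053. With the replicate block 10 of the 12 were called, at adjusted p of 0.027 to 0.043, the exceptions being Map3k13 and Mocs2. Arhgef19, an exchange factor for small GTPases, had the second largest fold change of these genes, 1.72 on the log2 scale, after Fam131c with 1.99. The fold changes of the other members lay between -0.74 and 1.38.

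Heat shock genes had the largest share of members with higher values among the lists, though none of its members passed over all genes tested. Of 23 members, 22 had a log2 fold change above 0, with a median of 0.97, and 19 were higher and none lower at an unadjusted p below 0.05, against 8.77% of named genes higher. In 21 of the 23 every obesity-resistant library was above every control library, against 10.4% of named genes. With the replicate block 9 were called higher, in a fit of the 7 libraries alone 12, and by DESeq2 14. Over all named genes these fits called 1.06%, 1.36% and 2.91% higher. The small chaperone Hspb8 had the lowest p of the list, at 33.4, 36.96, 35.1 and 65.1 CPM in control and 122, 104 and 111 in obesity-resistant libraries, with a log2 change of 1.40 ± 0.25 (SE, adjusted p = 0.055). With the block Hspb8 was called, at a log2 fold change of 1.69 (adjusted p = 0.021). Control replicate 4 was well above the other control libraries and was still below every obesity-resistant one. Hspb1, another small chaperone, was at 33.2, 59.1, 36.6 and 51.5 CPM in control and 244, 191 and 165 in obesity-resistant libraries (log2 fold change 2.15 ± 0.44, SE, adjusted p = 0.076, and 0.042 with the block).

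Among the larger chaperones, the inducible Hspa1b was at 3.52, 22.7, 4.16 and 20.6 CPM in control and 242, 109 and 92.1 in obesity-resistant libraries (adjusted p = 0.11). Control replicates 2 and 4 were far above control replicates 1 and 3, and still below every obesity-resistant library. Hspa1a, its near-identical neighbour, was at 2.66, 20.3, 2.68 and 13.2 CPM in control and 162, 59.9 and 60.9 in obesity-resistant libraries, and reads could have been split between the pair. Hsp90aa1, the inducible HSP90, was at 139.7, 261, 162 and 293 CPM in control and 739.8, 664 and 571 in obesity-resistant libraries, and its constitutive relative Hsp90ab1 at 475, 742, 496 and 686 CPM in control and 1222, 1232 and 1061 in obesity-resistant libraries. Dnaja1, a co-chaperone of HSP70, was at 65.3, 98.4, 61.5 and 85.7 CPM in control and 225, 230.5 and 207 in obesity-resistant libraries, and Hspa8, the constitutive HSP70, at 1184, 1582, 1132 and 1777 CPM in control and 2869, 2685 and 2436 in obesity-resistant libraries. In each of these genes the groups were apart. The mitochondrial pair Hspd1 and Hspe1 differed less, with log2 fold changes of 0.44 and 0.48, and the heat shock factor Hsf1 by 0.21. Cryab and Hspb7, the small chaperones of muscle, overlapped between the groups, where the skeletal muscle markers varied as given above.

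Heat shock factors bind inverted repeats of the unit GAA, and the pair GAANNTTC was searched for, N being any base, in the 250 bases before each start. The pattern reads the same on both strands. It was found in a promoter of 6 of the 18 heat shock genes with one in the table (33.3%), against 7.73% of all genes with a promoter there. A longer form, with a further unit GAA spaced NN from the pair on either strand, contains that pair and was found for 2 of the 18 (11.1%, Hspd1 and Hspe1), against 0.514% of all genes. Hspa1a and Hspa1b, both among the 6, are near-identical neighbours, so their matches need not be independent. Hspd1 and Hspe1 are also both among the 6. Whether their windows share bases was not tested, so their matches, of either form, need not be independent either. A match is a stretch of letters and not a measured binding site. RefSeq promoters on GRCm38.p6 are shown for 4 of the 6 genes, with matches in capitals, and for Hspb8, the member with the lowest p, which has no match in this window. They lie at chr5:135887669-135887918 (Hspb1, forward strand), chr4:40722218-40722467 (Dnaja1, forward), chr17:34959239-34959488 (Hspa1b, reverse), chr1:55087898-55088147 (Hspe1, forward) and chr5:116422865-116423114 (Hspb8, reverse), each written along the gene's own strand:
Hspb1: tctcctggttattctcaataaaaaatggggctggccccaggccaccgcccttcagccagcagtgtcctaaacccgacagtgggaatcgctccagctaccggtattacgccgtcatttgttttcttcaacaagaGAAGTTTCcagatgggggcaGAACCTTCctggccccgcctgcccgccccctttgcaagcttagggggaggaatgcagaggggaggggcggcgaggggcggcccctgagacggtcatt
Dnaja1: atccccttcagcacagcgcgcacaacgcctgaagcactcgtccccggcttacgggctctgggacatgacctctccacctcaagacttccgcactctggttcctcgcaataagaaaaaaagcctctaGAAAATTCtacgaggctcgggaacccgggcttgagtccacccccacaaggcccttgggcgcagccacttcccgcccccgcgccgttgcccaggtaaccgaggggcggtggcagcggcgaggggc
Hspa1b: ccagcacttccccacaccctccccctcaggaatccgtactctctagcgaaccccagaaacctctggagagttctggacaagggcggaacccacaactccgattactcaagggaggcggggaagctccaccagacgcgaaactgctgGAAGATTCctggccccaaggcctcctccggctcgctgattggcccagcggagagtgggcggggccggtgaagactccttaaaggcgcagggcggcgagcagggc
Hspe1: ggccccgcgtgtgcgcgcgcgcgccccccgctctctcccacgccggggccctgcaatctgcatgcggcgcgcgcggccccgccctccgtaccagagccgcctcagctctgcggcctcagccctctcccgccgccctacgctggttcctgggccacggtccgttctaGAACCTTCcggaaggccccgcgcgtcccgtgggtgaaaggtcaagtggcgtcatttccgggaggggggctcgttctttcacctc
Hspb8: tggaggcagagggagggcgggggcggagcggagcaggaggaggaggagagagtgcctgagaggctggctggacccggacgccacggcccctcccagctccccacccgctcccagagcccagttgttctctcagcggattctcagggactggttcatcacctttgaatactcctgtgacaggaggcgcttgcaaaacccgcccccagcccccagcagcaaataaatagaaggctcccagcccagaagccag
Hspb1 has 2 matches, which begin 117 and 97 bases before the start, and those of Dnaja1, Hspa1b and Hspe1 begin 124, 104 and 84 bases before it. The table lists 3 starts for Dnaja1. The one shown is the farthest upstream, and the windows before the other two hold no match.

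**Figure D2:**
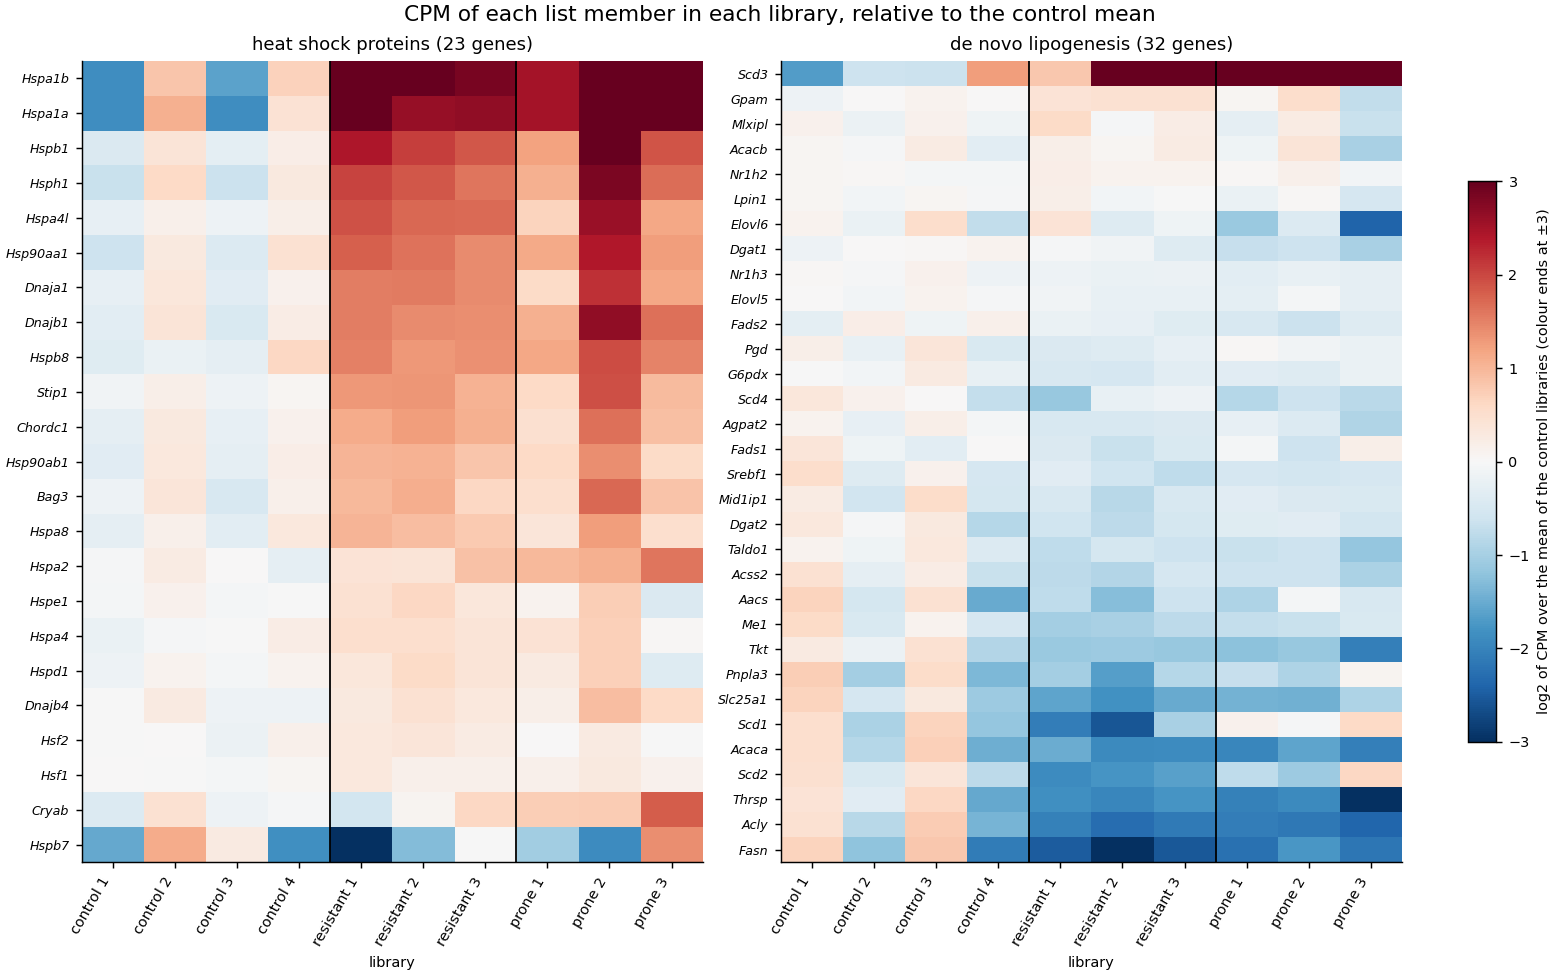
Each row is a gene and each column a library, and the colour gives the log2 of the gene's CPM over the mean of the 4 control libraries (heat shock proteins on the left, de novo lipogenesis on the right). The obesity-resistant columns are red for 21 of 23 heat shock genes, and in the lipogenesis panel control replicates 2 and 4 are paler or bluer than replicates 1 and 3 for genes such as Fasn and Acly.

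De novo lipogenesis, the making of fatty acids from citrate, had the lowest median of the pathway lists. Of 32 members none was called, 19 were lower and 1 higher at an unadjusted p below 0.05, against 9.91% and 8.77% of named genes, and the median log2 fold change was -0.54. With the replicate block 7 members were called lower, and DESeq2 called 11 lower and 1 higher. Over all named genes the block called 1.11% lower, and DESeq2 3.29% lower and 2.91% higher. Acly, which makes cytosolic acetyl-CoA from citrate, was at 932, 382, 1147 and 259 CPM in control and 166, 139 and 156 in obesity-resistant libraries, with a log2 change of -2.15 ± 0.46 (SE, adjusted p = 0.077). Fatty acid synthase (Fasn) was at 8816, 2400.5, 9819 and 1309 CPM in control and 997, 522 and 963 in obesity-resistant libraries, with a log2 change of -2.76 ± 0.66 (SE, adjusted p = 0.094). The citrate carrier Slc25a1 was at 254, 112, 196 and 75.2 CPM in control and 53.1, 45.2 and 55.9 in obesity-resistant libraries, with a log2 change of -1.63 ± 0.36 (SE, adjusted p = 0.084). In all of these the obesity-resistant libraries lay together below every control library, while control replicates 2 and 4 were far below control replicates 1 and 3. With the block the adjusted p was 0.030 for Acly, 0.036 for Fasn and 0.024 for Slc25a1.

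Desaturases and downstream enzymes were less uniform. Scd1, the main stearoyl-CoA desaturase, was at 14186, 5179.6, 15885 and 4465 CPM in control and 2344, 1679 and 5092 in obesity-resistant libraries, and the groups overlapped (log2 fold change -1.71, adjusted p = 0.15, and 0.038 with the block). Scd3 went the other way, at 0.0838, 0.174, 0.171 and 0.643 CPM in control and 0.473, 2.26 and 2.77 in obesity-resistant libraries, and also overlapped. Scd genes are similar in sequence, so reads may have been split between them. Elovl6 and Acacb, a fatty acid elongase and an acetyl-CoA carboxylase, had log2 fold changes of 0.0011 and 0.16. The E-box CACGTG was found in a promoter of 3 of 27 lipogenesis genes with one in the table (11.1%). It was found in 6.86% of all genes and in 9.1% of the named genes tested. The sterol response element TCACNCCAC, or GTGGNGTGA, was found in 1 of the 27 (3.7%), against 1.22% of all genes and 1.25% of the named genes tested. In the sister pathway of cholesterol synthesis none of 24 members was called by edgeR (DESeq2 1 higher and 2 lower), and the median was 0.054. At an unadjusted p below 0.05, 2 were higher and 4 lower (25.0%, against 18.7% of all named genes tested). Fdft1, squalene synthase, was at 44.9, 22.7, 25.97 and 5.998 CPM in control and 5.42, 5.99 and 7.57 in obesity-resistant libraries (log2 fold change -1.97, adjusted p = 0.11, and 0.022 with the block), with control replicate 4 within the obesity-resistant range.

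Fuel uptake and insulin signalling genes gave no call by edgeR. For the DESeq2 counts below, the shares over all named genes were 2.91% higher and 3.29% lower. For the counts at an unadjusted p below 0.05 they were 8.77% and 9.91%. Of 28 glucose uptake and glycolysis genes 4 were higher and 5 lower at an unadjusted p below 0.05, and DESeq2 called 2 each way. Slc2a5, the fructose transporter, was at 5.31, 0.521, 3.96 and 1.098 CPM in control and 0, 0 and 0.137 in obesity-resistant libraries, so that 2 of the 3 obesity-resistant libraries listed no count (adjusted p = 0.092, and 0.038 with the block). Pfkp, a phosphofructokinase, was at 74.1, 108, 113 and 185 CPM in control and 291, 219 and 254 in obesity-resistant libraries (log2 fold change 1.09, adjusted p = 0.10, and 0.043 with the block). Of 26 fatty acid uptake and lipolysis genes 1 was higher and 6 lower at that level (4 lower by DESeq2), among them the fatty acid transporter Slc27a1 at 312, 268, 264 and 215 CPM in control and 103, 149 and 172 in obesity-resistant libraries (log2 fold change -0.91, adjusted p = 0.077). Insulin signalling genes were spread both ways, 4 higher and 6 lower of 24, with a median of -0.058, and DESeq2 called 1 higher and 2 lower. Igfbp3, which binds insulin-like growth factors, was at 7.32, 12.5, 13.4 and 17.4 CPM in control and 49.9, 19.4 and 36.3 in obesity-resistant libraries (log2 fold change 1.48, adjusted p = 0.081). Of 23 amino acid transporters 2 were higher and 3 lower (DESeq2 1 lower). Among the lower ones, Slc7a8 was at 35.6, 73.2, 50.7 and 48.6 CPM in control and 24.9, 29.2 and 25.2 in obesity-resistant libraries (log2 fold change -0.98, adjusted p = 0.077). Slc38a2 had control values of 60.3, 67.1, 61.2 and 145 CPM against 148, 141 and 148, so that control replicate 4 alone overlapped the obesity-resistant libraries (adjusted p = 0.20, and 0.021 with the block).

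No gene of the thermogenic list was called by edgeR, and DESeq2 called 1 higher and 1 lower (2.91% and 3.29% over all named genes). Bmp8b, called by edgeR, and Adrb3, called by DESeq2, stand in other lists. Of 28 genes of brown adipocyte identity and thermogenesis, 3 were higher and 1 lower at an unadjusted p below 0.05 (14.3%, against 18.7% of all named genes), and the median log2 fold change was 0.13. For Ucp1 the log2 fold change was 0.083 ± 0.32 (SE), and the obesity-resistant libraries lay within the control range. Dio2, which makes active thyroid hormone inside the cell, was at 265, 562, 404 and 410.1 CPM in control and 817, 542 and 359 in obesity-resistant libraries, and Ppargc1a, the coactivator of mitochondrial genes, at 129.6, 324, 189 and 271 CPM in control and 263, 368 and 235 in obesity-resistant libraries. Both overlapped between the groups, with log2 fold changes of 0.48 ± 0.45 and 0.34 ± 0.32 (SE). Cidea, a lipid droplet protein, was at 979, 847, 799 and 656 CPM in control and 709, 817 and 804 in obesity-resistant libraries, and Elovl3, a cold-induced elongase, at 26.6, 33.6, 62.7 and 28.04 CPM in control and 81.8, 64.2 and 72.7 in obesity-resistant libraries (log2 fold change 0.95, adjusted p = 0.26). The lowest p of this list was that of Esrrb, an orphan nuclear receptor, at 2.599, 2.06, 1.88 and 4.02 CPM in control and 15.7, 8.62 and 9.87 in obesity-resistant libraries (log2 fold change 2.11 ± 0.40, SE, adjusted p = 0.065, and 0.035 with the block). Irf4, a factor of the thermogenic response, was at 31.4, 23.8, 35.3 and 8.33 CPM in control and 14.8, 8.78 and 9.13 in obesity-resistant libraries and overlapped (adjusted p = 0.18, and 0.031 with the block).

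Of 25 adrenergic receptor and cyclic AMP genes none was called by edgeR, 2 were higher and 2 lower at an unadjusted p below 0.05, and DESeq2 called 1 each way. For this and the lists that follow, the shares of all named genes at that unadjusted p were 8.77% higher and 9.91% lower. By DESeq2 they were 2.91% and 3.29%. Adrb3, the beta-3 adrenergic receptor of adipocytes, was at 229.6, 207, 179 and 189 CPM in control and 408, 277 and 348 in obesity-resistant libraries and the groups were apart, with a log2 change of 0.78 ± 0.15 (SE, adjusted p = 0.066). None of 57 nuclear-encoded respiratory chain genes passed even an unadjusted p below 0.05 or was called by DESeq2, and their median was -0.13. One listed member, Atp5a1, was counted at only 0.839, 1.07, 1.397 and 0.562 CPM in control and 1.33, 1.69 and 2.88 in obesity-resistant libraries, although it encodes a core subunit of the ATP synthase. The tricarboxylic acid cycle had 2 of 23 genes lower at that level, Pcx (802, 561, 692 and 477 CPM in control and 428, 428 and 463 in obesity-resistant libraries) and Mdh1. Fatty acid oxidation had 1 of 29 higher and 1 lower, and the lower one, Ucp3, a relative of Ucp1, was at 166, 209, 192 and 139.9 CPM in control and 86.8, 119 and 121 in obesity-resistant libraries (log2 fold change -0.69, adjusted p = 0.13). Branched-chain amino acid breakdown had 7 of 23 lower and none higher, with a median of -0.13, and DESeq2 called 3. Its aminotransferase Bcat2 was at 110.3, 110.1, 122 and 77.6 CPM in control and 62.6, 64.05 and 64.2 in obesity-resistant libraries (log2 fold change -0.72, adjusted p = 0.089, and 0.038 with the block). None of 7 creatine cycle genes passed either threshold, although the block called the creatine transporter Slc6a8 (adjusted p = 0.034).

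**Figure D3:**
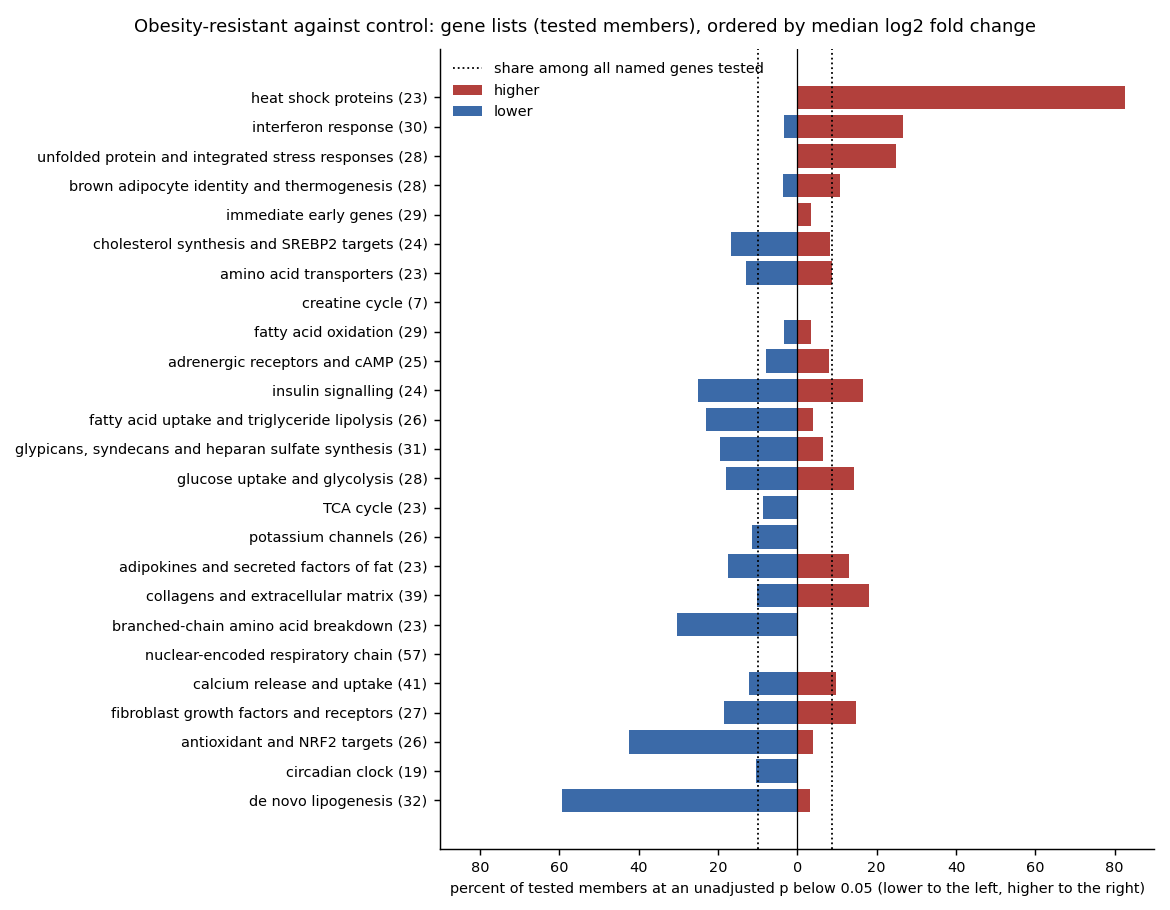
For each of 25 gene lists, the percent of tested members with an unadjusted p below 0.05, higher to the right and lower to the left, with dotted lines at the shares among all named genes tested (8.77% and 9.91%). The longest bars are those of heat shock genes to the right and of lipogenesis genes to the left, and the respiratory chain and the creatine cycle have none.

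Stress, immune and clock lists gave no calls by edgeR. Over all named genes the block called 1.06% higher and 1.11% lower, and DESeq2 2.91% and 3.29%. At an unadjusted p below 0.05 the shares were 8.77% and 9.91%. Of 28 genes of the stress responses of the endoplasmic reticulum and of translation, 7 were higher and none lower at an unadjusted p below 0.05, with a median of 0.19, and 4 were called higher with the block and 6 by DESeq2. Sdf2l1, a chaperone cofactor of the endoplasmic reticulum, was at 0.839, 1.56, 0.884 and 1.69 CPM in control and 3.09, 4.73 and 2.58 in obesity-resistant libraries, and Manf, a secreted stress protein, at 21.97, 22.999, 24.8 and 30.3 CPM in control and 34.6, 40.2 and 33.4 in obesity-resistant libraries (adjusted p = 0.083 and 0.085, and 0.065 and 0.042 with the block). Of 30 interferon response genes, 8 were higher and 1 lower, with a median of 0.38, and 1 was called with the block, against 2 higher and 1 lower by DESeq2. Oas2, a sensor of double-stranded RNA, was at 4.84, 3.79, 3.68 and 6.45 CPM in control and 7.702, 9.399 and 8.58 in obesity-resistant libraries (log2 fold change 0.87). Immediate early genes had 1 of 29 higher and none called by DESeq2. Circadian clock genes had 2 of 19 lower, Per3 and Hlf, at log2 fold changes of -1.44 and -0.86, and DESeq2 called 1. The time of day at sampling is not given in the sources used here.

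No cell type marker list held a gene called by edgeR. Among all named genes 8.77% were higher and 9.91% lower at an unadjusted p below 0.05, and DESeq2 called 2.91% and 3.29%. Macrophage markers stood at a median log2 fold change of -0.23 and at summed levels of 168 to 334 CPM in control and 184 to 245 in obesity-resistant libraries. T and NK cell markers summed to 3.35 to 8.41 and 2.51 to 3.57 CPM, and all 8 tested were below 0 in log2 fold change, none at an unadjusted p below 0.05. Progenitor and fibroblast markers had a median of -0.24, endothelial markers 0.12, and white adipocyte markers -0.35. General adipocyte markers had a median of -0.28, and of 15 tested 6 were lower and none higher at an unadjusted p below 0.05, with 4 called lower by DESeq2. Their summed level was 26700 to 30300 CPM in control and 25100 to 26500 in obesity-resistant libraries, so that the groups were apart, and its part in the lower values of lipogenesis and adipokine genes was not tested. Of the 4 mesothelial and epithelial markers that could be tested, 3 were lower at an unadjusted p below 0.05 and by DESeq2, and the median was -1.48. Skeletal muscle markers had a median of -0.15, and with the muscle score as a covariate 51 genes were called (0.301%; 37 higher, 0.219%, and 14 lower, 0.0827%), among them 27 of the 28.

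The obesity-prone libraries, on the same kind of diet, are set beside these values for the called genes. By the same edgeR test, all called genes but Bdh1, Acot12 and Gstm2 were also called in obesity-prone against control, in the same direction. The adjusted p there was 0.31 for Bdh1, 0.060 for Acot12 and 0.063 for Gstm2. Both contrasts share the 4 control libraries, so their fold changes are not independent of each other. Lamb3 had a log2 fold change of 1.59 in obesity-resistant and 1.81 in obesity-prone libraries, Ryr2 1.66 and 1.92, Gpc1 1.75 and 1.76, Fgf1 1.25 and 1.24, and Pde1a -1.06 and -1.07. Other genes were further apart. Bdh1 was at 0.181, 0.218 and 0.342 CPM in the obesity-prone libraries, below every obesity-resistant one, and its log2 fold changes were 3.22 and 0.80. Acot12 was at 1.81, 1.58 and 1.11 CPM, with 2.12 and 1.10. Cyp1a1 was at 0.903, 2.04 and 0.5001 CPM, with -3.28 and -4.78, so that every obesity-prone library was below every obesity-resistant one. For the lists, the median log2 fold change of heat shock genes was 0.97 and 1.2, of lipogenesis genes -0.54 and -0.44, of the respiratory chain -0.13 and -0.44, of collagens and extracellular matrix -0.13 and 0.79, and of macrophage markers -0.23 and 1.25. Obesity-prone replicate 3 stood apart in some of these lists, and without it the obesity-prone median was -0.19 for the respiratory chain, 0.48 for collagens and extracellular matrix and 0.87 for macrophage markers.

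**Figure D4:**
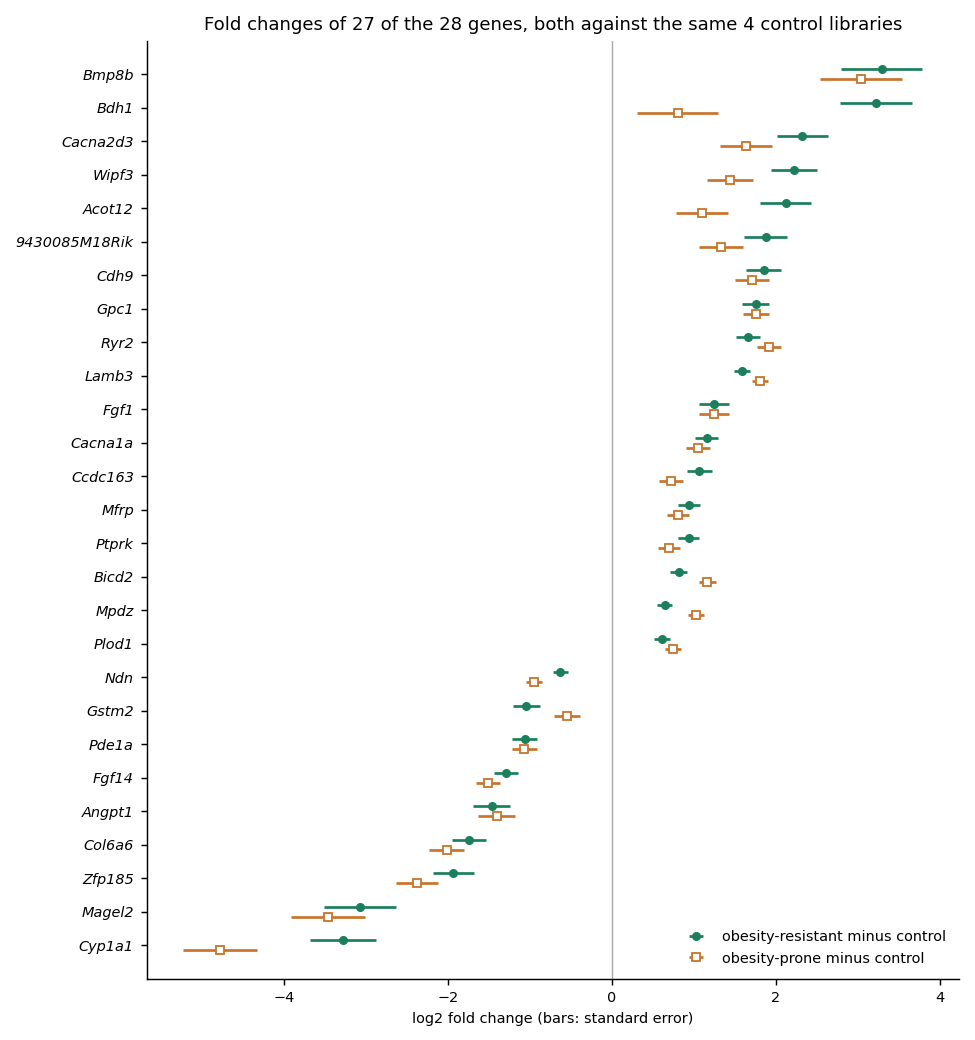
Log2 fold changes of 27 of the 28 called genes in obesity-resistant (filled circles) and obesity-prone libraries (open squares), both against the same 4 control libraries, with bars for the standard error. Bdh1 shows the widest gap on the rising side (3.22 and 0.80) and Cyp1a1 on the falling side (-3.28 and -4.78).

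The direct difference between obesity-resistant and obesity-prone libraries was tested in the same fit. By edgeR no named gene passed (0% of 16920, smallest adjusted p = 0.23), with 2797 at an unadjusted p below 0.05 (16.5%; 944 higher in obesity-resistant libraries, 5.58%, and 1853 lower, 11.0%). DESeq2 called 544 (3.22%), 149 higher (0.881%) and 395 lower (2.33%). Without obesity-prone replicate 2, edgeR called 832 genes (186 higher and 646 lower), and without control replicate 3 it called 1. For Bdh1 the difference was 2.42 ± 0.45 on the log2 scale (SE, adjusted p = 0.23), for Cyp1a1 1.5 ± 0.44 (0.23), for Acot12 1.02 ± 0.32 (0.24) and for Mpdz -0.38 ± 0.10 (0.23). Scd1 was at 10899, 9628 and 14940.0 CPM in obesity-prone libraries, all above every obesity-resistant one, a difference of -1.96 ± 0.56 (adjusted p = 0.23). Leptin was at 61.2, 23.8 and 395 CPM there, a difference of -4.30 ± 1.12 (adjusted p = 0.23). A p that misses the threshold does not show that the 2 diet groups were alike.

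How many genes were called turned on single libraries. Leaving out control replicate 4 raised the count from 28 to 819 (4.87%; 378 higher, 2.25%, and 441 lower, 2.62%), and leaving out control replicates 1, 2 or 3 lowered it to 7, 3 or 8. Without obesity-resistant replicates 1, 2 or 3 it was 3, 6 or 4, and without obesity-prone replicates 1, 2 or 3, which enter through the shared spread, 25, 173 or 281. The 25 held 18 of the 28, and the 173 and 281 held all of them. Without control replicate 4 and obesity-prone replicate 3 it was 2098 (12.3%; 931 higher, 5.47%, and 1167 lower, 6.86%). Lamb3, Ryr2 and Gpc1 were called in all 10 fits that left out 1 library.

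**Figure D5:**
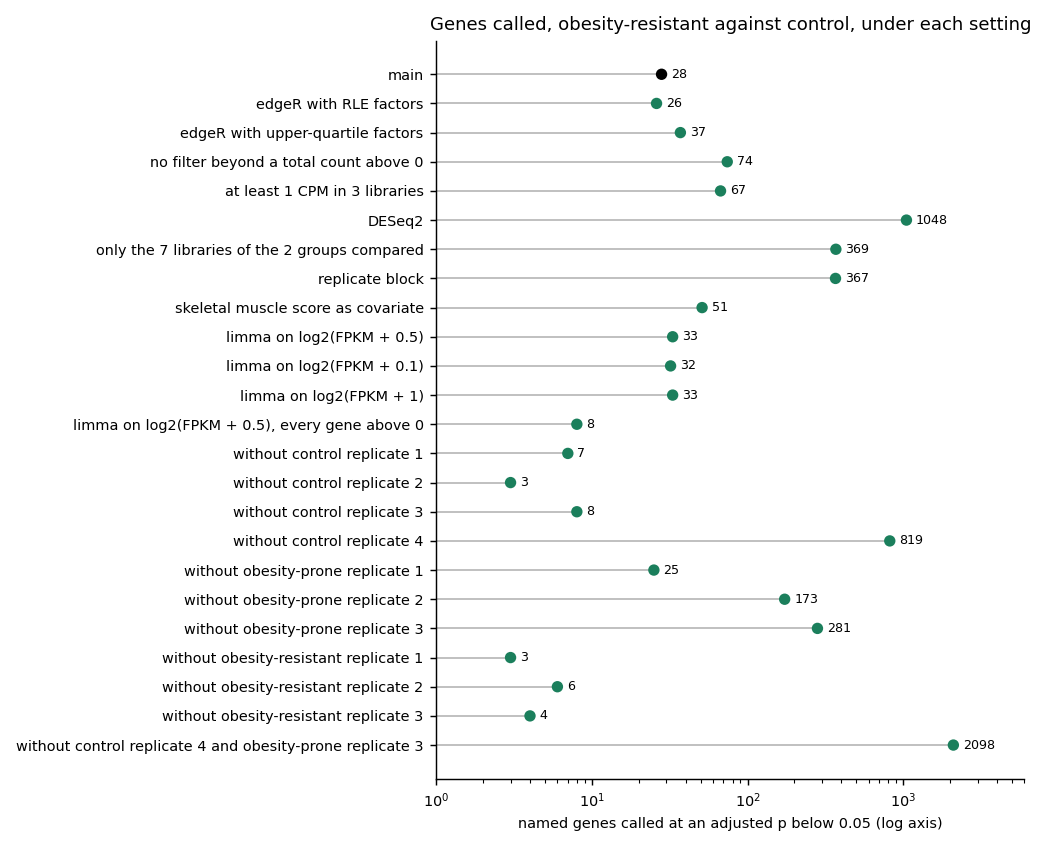
Number of named genes called at an adjusted p below 0.05 under each setting, on a log axis, with the value printed beside each point and the black point for the fit described. The counts run from 3, without control replicate 2 or obesity-resistant replicate 1, to 2098.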

How the data were processed

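Total RNA of brown adipose tissue was sequenced, and the authors deposited, per the labels' protocols, expected counts per gene from RSEM 1.2.12 after Bowtie2 2.2.5 alignment to a gene set of the sequencing company. HISAT2 2.0.4 and the build GRCm38.p6 appear in the submitters' processing notes. The authors also deposited FPKM values for each library, and 6 columns of group means were not used. Of the count values, 30.4% were not whole; they were rounded here. Gene classes, positions and promoters came from RefSeq on GRCm38.p6, to which 24350 of 25017 named genes were matched; 26 symbols turned into dates were restored by identifier.

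Genes were kept by filterByExpr at a minimum count of 10, scaled by TMM and tested in edgeR 4.0.16 (R 4.3.3) with its quasi-likelihood test, robust, on the group means of all 10 libraries (7 residual degrees of freedom). P-values were adjusted over 19676 genes, those without a name included, none of which was called. On simulated counts with 19362 genes tested, the fit recovered 13.4% of genes changed 1.5-fold, 68.7% of those changed 2-fold and 95.5% of those changed 4-fold, with 7 false calls. These counts were drawn independently for each library, so libraries that stand apart, as in the real data, were not simulated. The shares recovered need not hold for the real libraries.

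Named in the text are all called genes, the 12 lowest p-values among the others, the 2 members of lowest p in each pathway list, and Acly, Adipoq, Adrb3, Atp2a2, Cidea, Dio2, Elovl3, Fasn, Lep, Ppargc1a, Scd1 and Ucp1. A few genes that this rule names, 1 of them called, are not reported here. Other heat shock and lipogenesis members, genes that overlap a called gene and the genes of the closing section were chosen after their values were seen. So were Extl1, Fgf21 and Xylt1. The comparison and the gene lists were chosen with earlier results of these data known. Lists are described by counts and medians, with no test of the list.

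Control and obesity-resistant libraries of the same number deviated together from their group means (correlations 0.149, 0.121 and 0.187 for numbers 1 to 3). The replicate block was tried for that reason. Pairs of unlike number reached 0.254, and the labels state no pairing, so it is not established that the numbers pair the libraries. The alternatives tried were other filters, RLE or upper-quartile scaling, DESeq2 1.42.0, the 7 libraries alone, the replicate block, a skeletal muscle covariate, limma 3.58.1 on log2 of FPKM plus 0.5, 0.1 or 1, and leaving out each library.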

Additional observations from a re-analysis of the deposited data

Results flagged for a closer look

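In 7 of 112 described genes that were checked, 1 control library stood apart from the other control libraries. The gap was larger than a test for a single outlying value among 4 samples allows (Dixon's test, 95% level). By chance alone about 1 in 20 groups would be marked. Extl1 and Fgf21 were not checked. Slc38a2, an amino acid transporter, was at 145.3 CPM in control replicate 4, against 60.3 to 67.1 CPM in the other control libraries, and so within the obesity-resistant range. Hspb8, a small chaperone, was at 65.1 CPM in control replicate 4, against 33.4 to 37.0 CPM. Sestd1 was at 43.99 CPM in control replicate 4, against 37.1 to 37.6 CPM. Wwc1, a scaffold of the Hippo pathway, was at 0.482 CPM in control replicate 4, against 0.112 to 0.145 CPM, and the desaturase Scd3 at 0.643 CPM, against 0.0839 to 0.174 CPM. Aldh3b2, an aldehyde dehydrogenase, was at 14.78 CPM in control replicate 4, below the 26.3 to 28.4 CPM of the others. Mrps6 was at 25.9 CPM in control replicate 2, against 21.6 to 22.1 CPM. In all of these genes but Mrps6 the library that stood apart was control replicate 4, on the side of the obesity-resistant values.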

How the results depend on the processing

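All 28 called genes kept the sign of their fold change in every alternative that tested them, and the number of genes called moved widely. Against 28, no filter on low counts gave 74 genes, a filter of 1 CPM in 3 libraries 67, DESeq2 1048, the 7 libraries alone 369, the replicate block 367, a skeletal muscle covariate 51, and limma on log2 of FPKM plus 0.5 with every gene above 0 kept gave 8. Without 1 library the count ran from 3 to 819, and without control replicate 4 and obesity-prone replicate 3 together it was 2098; the cause was not tested. Over the called genes and alternatives, the call was kept in 452 cases and lost in 191, 139 of the latter where a control or obesity-resistant library was left out. The replicate block lost none of the 28 calls; by construction it drops control replicate 4 from the contrast. For obesity-resistant against obesity-prone libraries, where edgeR called none, DESeq2 called 544 and leave-one-out fits called from 0 to 832, the highest without obesity-prone replicate 2. Leaving out control replicate 1 turned the sign for Cidea (log2 fold change 0.0165 in place of -0.079; from -0.173 to 0.0165 over the fits that left out libraries) and Ucp1 (-0.0460 in place of 0.083; from -0.0460 to 0.185), and neither was called. Scaling moved the median of all named genes by less than 0.1 on the log2 scale. On simulated counts with independent libraries, 3 against 4, changes of 1.5-fold were mostly below what this fit could recover.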

Other observations

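The replicate block, the fit of 7 libraries and DESeq2 called 133 named genes in common, 83 higher and 50 lower. Of these 123 were protein-coding and 8 long noncoding RNAs. All these counts include the 28 called genes. The genes below were picked from the rest after their values were seen, by no fixed rule, and none of them passed the edgeR fit over all libraries. Hcn2, a pacemaker channel opened by cyclic AMP, was at 1.43, 3.65, 2.05 and 6.11 CPM in control and 30.2, 13.3 and 33.3 CPM in obesity-resistant libraries (log2 fold change 2.95). P4ha1, a collagen prolyl hydroxylase, was at 23.3, 42.7, 19.95 and 33.8 CPM in control and 170, 135 and 129 CPM in obesity-resistant libraries (log2 fold change 2.27). Wwc1, a scaffold of the Hippo pathway, was at 0.112 to 0.482 CPM in control and 1.24 to 1.67 CPM in obesity-resistant libraries. Kng1, Dusp15, Ppp2r2c and Kcng4 were also higher, at log2 fold changes of 1.90 to 3.97 and levels of at most 2.99 CPM.

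On the lower side, Car3, the abundant carbonic anhydrase of adipocytes, was at 5637, 2483, 4015 and 1178 CPM in control and 437, 429 and 575 CPM in obesity-resistant libraries (log2 fold change -2.79, adjusted p = 0.081 over all libraries and 0.031 with the replicate block). Rgs2, an inhibitor of G protein signalling, was at 166, 127, 134 and 64.5 CPM in control and 45.7, 41.1 and 39.3 CPM in obesity-resistant libraries (log2 fold change -1.55). Scd2, a stearoyl-CoA desaturase, was at 95.1, 49.4, 88.1 and 39.8 CPM against 18.5, 20.01 and 21.9 CPM. Vat1l, Mgst2 (a microsomal glutathione transferase), Aldh3b2 (an aldehyde dehydrogenase) and Cryl1 were lower too, with log2 fold changes of -1.90, -2.56, -1.36 and -1.04. In each of these lower genes, Car3, Rgs2, Scd2, Vat1l, Mgst2, Aldh3b2 and Cryl1, control replicate 4 was the lowest of the control libraries. The replicate block, through which they were picked in part, drops that library from the contrast.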
